A study of Mus musculus with 4 samples.

Results

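Motile cilia are the beating, microtubule-based projections of ependymal cells, choroid plexus epithelium, airway and sperm, and the genes described here encode their core, the axoneme, and the factors that build it. The members were the rows of the deposited table whose name begins with Dnah, Dnai, Dnaaf, Cfap, Rsph or Tekt followed by a digit, together with Foxj1, Dynlrb2, Ccdc39 and Ccdc40. This rule gave 70 of 40630 genes: 32 Cfap, 16 Dnah, 8 Rsph, 5 Dnaaf and 5 Tekt genes and the 4 single genes. No Dnai gene is analysed here. The set was proposed because cilia genes such as Dynlrb2 were already known to be lower in these same libraries, so the values below describe that one contrast and no p-value is given for a member.

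RNA was measured by RNA-seq in 4 libraries of neocortex from C57BL/6 mouse embryos at E13.5. The 2 cKO-labelled libraries (replicates 4 and 5) carry the genotype Upf2fl/fl Emx1-Cre+, a conditional knockout (cKO) of an adaptor of nonsense-mediated mRNA decay. The 2 control libraries (replicates 8 and 9) carry Upf2fl/+ Emx1-Cre-, so they too hold 1 floxed allele, and the number of floxed alleles and the presence of Cre differ together. Emx1-Cre is active in progenitors of the dorsal telencephalon and in the cells that descend from them, whereas ventral, vascular and immune cells keep Upf2. The labels do not say whether a library is 1 embryo or a pool, so the spread between replicates may be technical.

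The axoneme is a ring of microtubule doublets around a central pair. Dynein arms on the doublets drive sliding, radial spokes and the central apparatus time it, and proteins inside the doublets and along their length hold the structure together. Dynein arms are put together in the cytoplasm by dedicated assembly factors before transport into the cilium. In multiciliated cells the geminin-family proteins GMNC and MCIDAS start the programme, and FOXJ1 with RFX factors switches on the axonemal genes. At this embryonic stage the choroid plexus and the cortical hem next to it lie at the medial edge of the cortex, while the neural progenitors of the cortex carry a single primary cilium that does not beat.

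The promoters of 4 members are shown. Dynlrb2 had the largest change on the log2(TPM + 1) scale, Cfap44 and Cfap45 were also called lower, and Cfap298 was not called. No member above its control level is shown, and each of the 4 holds a match to the motif marked below. Each runs 5′ to 3′ on the gene's strand, from 250 bases before to 50 bases after the RefSeq start in GRCm38.p6. Capitals mark matches to the X-box, the inverted repeat bound by RFX factors, searched on both strands as GTT, any base, CC, 3 bases of any kind, G, any base and AAC, and with the inner spacer 1 base shorter or longer.
Dynlrb2 promoter, chr8:116504765-116505064, plus strand: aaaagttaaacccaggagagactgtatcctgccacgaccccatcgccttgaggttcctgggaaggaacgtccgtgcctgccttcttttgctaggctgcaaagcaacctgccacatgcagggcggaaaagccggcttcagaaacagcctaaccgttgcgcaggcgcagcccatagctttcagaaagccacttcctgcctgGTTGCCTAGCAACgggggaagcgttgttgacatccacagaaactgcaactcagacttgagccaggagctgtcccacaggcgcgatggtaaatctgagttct
Cfap44 promoter, chr16:44394549-44394848, plus strand: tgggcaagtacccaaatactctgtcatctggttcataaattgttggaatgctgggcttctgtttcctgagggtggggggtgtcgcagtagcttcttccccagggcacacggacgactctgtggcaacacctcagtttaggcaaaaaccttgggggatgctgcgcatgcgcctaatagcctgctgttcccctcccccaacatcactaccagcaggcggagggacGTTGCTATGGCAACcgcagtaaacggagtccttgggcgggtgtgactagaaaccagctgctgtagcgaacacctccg
Cfap45 promoter, chr1:172520880-172521179, plus strand: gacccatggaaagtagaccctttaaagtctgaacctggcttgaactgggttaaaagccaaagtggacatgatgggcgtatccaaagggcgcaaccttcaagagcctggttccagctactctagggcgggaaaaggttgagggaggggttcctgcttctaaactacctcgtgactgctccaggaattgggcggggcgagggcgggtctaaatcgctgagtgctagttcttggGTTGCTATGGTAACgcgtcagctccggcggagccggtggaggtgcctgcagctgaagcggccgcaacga
Cfap298 promoter, chr16:90934800-90935099, minus strand: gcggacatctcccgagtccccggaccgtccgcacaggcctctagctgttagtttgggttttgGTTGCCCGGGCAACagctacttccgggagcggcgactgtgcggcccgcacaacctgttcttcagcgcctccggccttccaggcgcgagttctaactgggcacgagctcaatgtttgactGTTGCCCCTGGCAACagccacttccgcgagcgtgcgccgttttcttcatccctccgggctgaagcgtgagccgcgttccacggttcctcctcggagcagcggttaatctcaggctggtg

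The match began 51 bases before the start in Dynlrb2, 27 in Cfap44 and 19 in Cfap45, and Cfap298 held matches 188 and 69 bases before its start. RefSeq promoters were found for 56 of the 70 members by symbol. The X-box with the 3-base spacer was present in 6 of these 56 (10.7%), against 0.936% of 27025 genes with a promoter of the same length. Besides Cfap44, Cfap45 and Cfap298, the matches, printed on the gene's strand with the letters fixed by the motif on whichever strand it matched in capitals, were the following.
Tekt4, chr17:25471590-25471603, plus strand: GTTcCttaGGcAAC
Dnaaf2, chr12:69198433-69198446, minus strand: GTTaCtatGGcAAC
Cfap61, chr2:145934776-145934789, plus strand: GTTtCCttaGcAAC

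These sites mix members that were called lower with members that were not. Of members called lower, 3 of 10 with a promoter held this X-box, and of tested members not called 2 of 17 did. A stricter form (GTTGCC, 2 bases of any kind, GG, any base and AAC), each match of which also matches the X-box, was found in 1 member (Cfap298, 1.79% of 56) and in 0.355% of all genes. The single arm GTTGCCA, which can overlap both, was in 13 members (23.2%) and in 5.02% of all genes. The forkhead motif GTAAACA, which cannot match inside the X-box, was in 4 members (7.14%) and in 4.05% of all genes. With the spacers 1 base shorter and longer included, a choice made after the Dynlrb2 promoter had been read, 10 of 56 members (17.9%) held an X-box against 1.9% of all genes.

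Depth recovered from the deposited values was 33537843 to 41680052 reads per library. In TPM (transcript abundance scaled for gene length and to the same total in each library), Upf2 itself stood at 27.8 and 42.2 in the cKO-labelled pair beside 23.7 and 41.3 in the controls, so the groups overlap (log2 fold change 0.13 ± 0.36 (SE), limma adjusted p = 0.853), and it turned to -0.16 without cKO-labelled replicate 5 and to -0.26 without control replicate 8. A count over all exons cannot show the loss of a few of them, and the groups are called cKO-labelled and control for this reason. The dorsal telencephalic marker Tbr1, a factor of early-born cortical neurons, was present in every library, at 180 and 190 TPM against 134 and 111 TPM. It belongs to a list of 10 such markers with a median log2 fold change of -0.27. Both cKO-labelled libraries lay below both controls for 5 of the 10 and above both for 2, Tbr1 among the latter. The controls differed from each other by base composition. Across tested genes, the difference between them (9 minus 8, log2) correlated with GC content at a Spearman rho of -0.76. This value cannot tell which of them departs.

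Averaged over the 4 libraries, 34 members reached 1 TPM and entered the fit of all 15107 such genes (limma on log2(TPM + 1), Benjamini-Hochberg adjusted p under 0.05). Of these, 14 were called lower in the cKO-labelled libraries and none higher, against 5.24% of all tested genes called lower and 2.9% called higher. At an unadjusted p under 0.05 in limma there were 16 lower and none higher, against 2200 and 1239 of all 15107 tested genes. The median log2 fold change of the 34 was -0.70, beside -0.16 for all tested genes. Nothing is read from these counts, because the same contrast led to the choice of the genes and because 11 of the 34 had a mean under 1 TPM in the cKO-labelled libraries and passed only through the controls. Of those 11, 9 were called lower, where 41.2% of all tested genes with so low a cKO-labelled mean were. Of the 23 with a cKO-labelled mean of at least 1 TPM, 5 were called lower, where 3.3% of all such genes were. In bulk tissue, fewer cells of a type and less RNA per cell cannot be told apart.

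**Figure D1:**
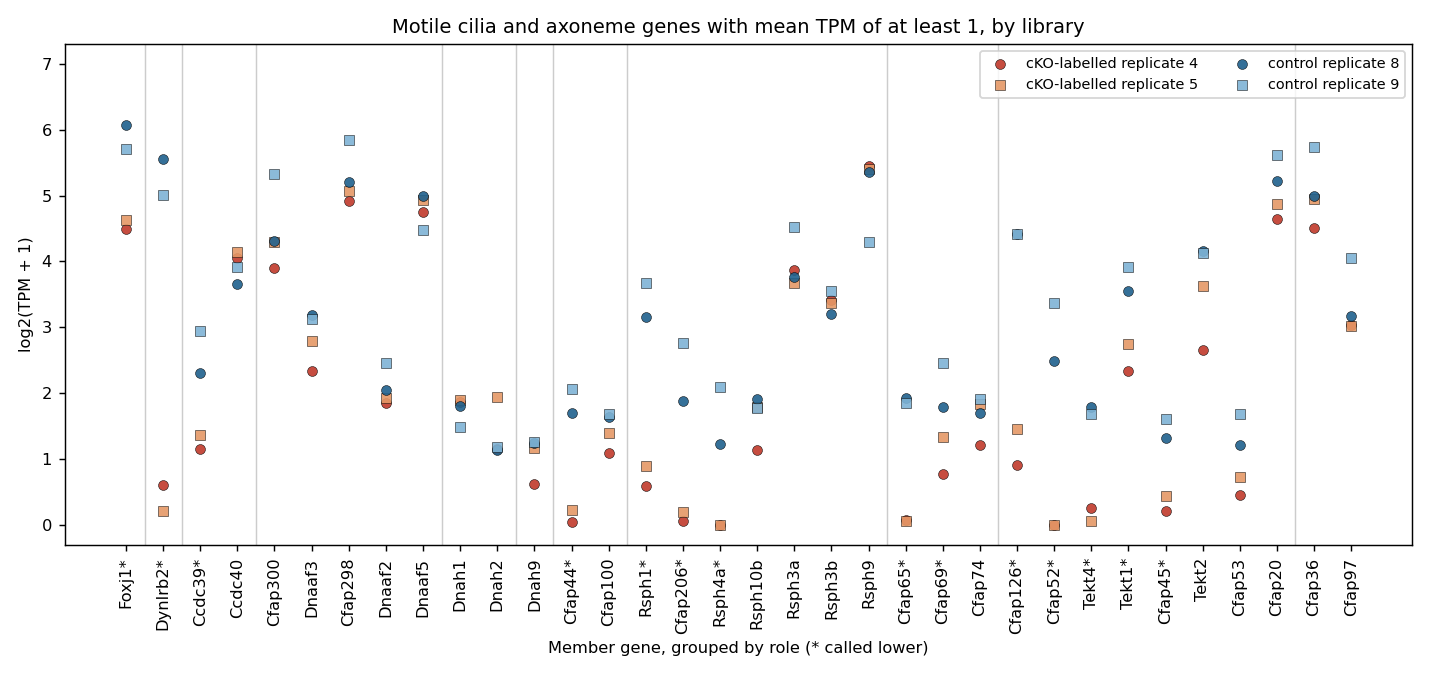
Level of each of the 34 tested members on the log2(TPM + 1) scale in the 4 libraries, with members grouped by role along the x axis and an asterisk on the 14 called lower. The cKO-labelled points of Dynlrb2, Cfap52, Rsph4a and Cfap65 sit near 0 while those of Rsph9 and Ccdc40 lie above both controls.

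The response was not uniform across the family. Among the 34 tested members, 9 had a cKO-labelled mean under 10% of the control mean, 18 lay between 10% and 75%, and 7 were above 75%. Both cKO-labelled libraries lay below both controls for 25 of the 34 and above both for 3, where 34.1% and 23.5% of all tested genes did so. The other 36 members had a mean under 1 TPM and were not tested. Of these, 27 were lower in both cKO-labelled libraries than in both controls, 1 was higher and 8 overlapped, beside 26.0% and 9.52% of all detected genes below that mean. At the edge of the filter the members varied. Just inside, Cfap45 had 0.154 and 0.365 TPM against 1.51 and 2.05 TPM, and Dnah9 stood at 64.7% of control. Just outside, Cfap73 had 0 and 0 against 1.36 and 2.35 TPM, and Cfap47 stood at 82.0% of control with overlapping groups.

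**Figure D2:**
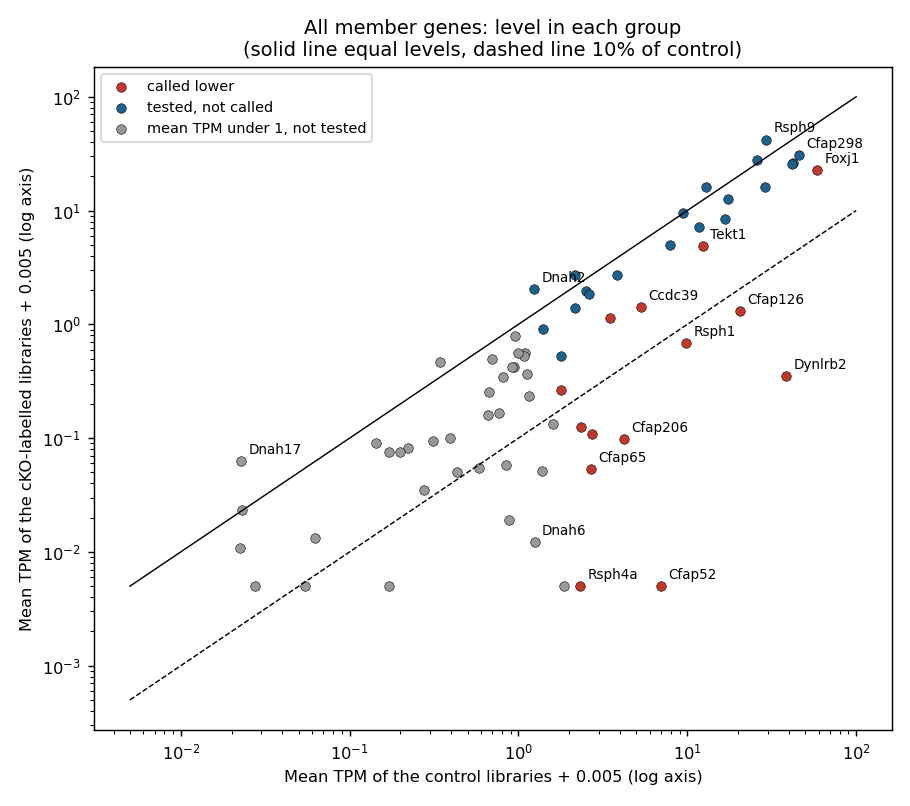
Mean TPM of the 2 cKO-labelled libraries against that of the 2 control libraries for all 70 members, each with 0.005 added, on log axes, coloured by call. The solid line marks equal levels and the dashed line 10% of control; Dynlrb2, Cfap52 and Dnah6 lie far below the dashed line and Rsph9 above the solid one.

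Foxj1, the forkhead factor that activates axonemal genes (ENSMUSG00000034227.7, chr11:116330704-116335399 in GRCm38), had control levels of 66.5 and 50.9 TPM and cKO-labelled levels of 21.5 and 23.6 TPM. The groups did not overlap, and the cKO-labelled mean was 38.5% of the control mean (log2 fold change -1.33 ± 0.36 (SE)). These levels rest on 576 and 684 reads against 2227 and 1481. Foxj1 was the most abundant member over the 4 libraries. It was called lower with all 4 libraries and missed the threshold when either cKO-labelled library was left out, with a fold change of -1.27 without replicate 4 and -1.39 without replicate 5. With no filter on low TPM the call was also lost.

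Regulators that start the multiciliated programme stood at a smaller share of control than Foxj1, a difference that was not tested. Gmnc, the geminin relative at the top of the programme, had 0 and 0.0316 TPM against 5.43 and 10.5 TPM, from 0 and 2 reads against 398 and 671. Mcidas, which acts after it, had 0.0825 and 0.114 TPM against 7.68 and 11.5 TPM, or 1.03% of the control mean. Ccno, a cyclin-like gene needed to amplify centrioles, had 0.154 and 0.213 TPM against 12.5 and 10.5 TPM. For each of the 3, both cKO-labelled libraries lay below both controls, where 34.1% of all tested genes did so. Each of the 3 passed the filter only through the controls.

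Cdc20b, the neighbour of Mcidas and Ccno on chromosome 13, had 0.0537 and 0.297 TPM against 8.65 and 11.8 TPM. Deup1, which builds the deuterosomes that seed new centrioles, had 0.178 and 0.0547 TPM against 4.14 and 5.91 TPM. Of 21 genes listed as regulators of multiciliogenesis, 20 were tested, 6 were called lower and none higher (limma; at an unadjusted p under 0.05, 9 lower and none higher), with a median log2 fold change of -0.61. The sixth was Ccp110, a centriole-capping gene of all ciliated cells, at -1.24. The other 5 were all the tested regulators with a cKO-labelled mean under 1 TPM, and they passed the filter only through the controls. At so low a mean 41.2% of all tested genes were called lower. Of the 15 regulators with a cKO-labelled mean of at least 1 TPM, 1 was called, where 3.3% of all such genes were. The most abundant members, Tfdp1, E2f4 and Cep78, which also serve the cell cycle and centrosomes of dividing cells, stood at -0.95, -0.02 and -0.53 and were not called. Rfx1, Rfx2, Rfx3 and Trp73, named after their values were seen, stood at 0.19, 0.25, -0.58 and -0.16, and none was called.

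Dynlrb2, a roadblock-type dynein light chain (ENSMUSG00000034467.7, chr8:116504974-116515915), had control levels of 45.8 and 31.2 TPM and cKO-labelled levels of 0.529 and 0.163 TPM (log2 fold change -4.86 ± 0.39 (SE)). These were 3 reads and 1 read against 325 and 192 reads. From pooled reads the level was 0.869% of control, with a 95% interval of 0.236% to 2.24% (exact binomial, counting error only). Its paralogue Dynlrb1, the light chain of cytoplasmic dynein in all cells, had 640 and 611 TPM against 556 and 580 TPM. Of 14 cytoplasmic dynein genes, none was called in limma, and the median was -0.23. All 14 had a cKO-labelled mean of at least 1 TPM, where 3.3% of all tested genes were called lower. At an unadjusted p under 0.05 in limma, 2 were lower and 1 higher, against 2200 and 1239 of all 15107 tested genes. Dynll2 and Dynll1, the most abundant of them besides Dynlrb1, stood at 0.03 and -0.54.

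Among the dynein assembly factors no tested member was called in limma, and none had an unadjusted p under 0.05. All 5 tested had a cKO-labelled mean of at least 1 TPM, where 3.3% of all tested genes were called lower. Dnaaf5 had 25.9 and 29.6 TPM against 30.7 and 21.3 TPM, and the groups overlapped. Cfap298, which acts with the assembly factors, had 29.1 and 32.7 TPM against 35.7 and 56.4 TPM. Cfap300, another factor needed to bring dynein arms into the cilium, had 13.9 and 18.6 TPM against 18.8 and 39.2 TPM. In both genes the cKO-labelled libraries lay below both controls, and replicate 9 was the higher control.

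Dnaaf2 and Dnaaf3 stood at 71.0% and 62.7% of control. Dnaaf1 and Dnaaf4, with mean TPM under 1, stood at 37.3% and 46.1%. Over the 7 genes of this role the cKO-labelled mean ranged from 37.3% to 107% of control, and none was under 10%. The grouping by role was made from general knowledge with the values known, so it describes these genes and is not a test.

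The dynein heavy chains, the motor subunits of the arms, were low in all libraries, and only 3 of 15 coding Dnah genes reached a mean of 1 TPM. Dnah1, an inner arm chain, had 2.65 and 2.74 TPM against 2.52 and 1.79 TPM, with both cKO-labelled libraries above both controls. Dnah2, another inner arm chain, had 1.23 and 2.85 TPM against 1.20 and 1.27 TPM, a difference carried by cKO-labelled replicate 5. Dnah9, an outer arm chain, had 0.547 and 1.24 TPM against 1.37 and 1.40 TPM.

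Dnah6 showed another pattern, with 0.00741 and 0.00684 TPM (1 read each) against 0.993 and 1.49 TPM (168 and 219 reads). This is 0.581% of control from pooled reads, with an exact binomial 95% interval of 0.0701% to 2.11%. Dnah3 had no read in either cKO-labelled library against 42 and 16 reads in controls, a level at least 8.36-fold lower when 3 reads per library are taken as the limit of detection. Dnah11, an outer arm chain, had 0.0271 and 0.0627 TPM against 0.417 and 0.443 TPM. Dnah5, the outer arm chain most often mutated in human primary ciliary dyskinesia, had 0.0376 and 0.104 TPM against 0.115 and 0.271 TPM.

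Of the remaining heavy chains, Dnah8, Dnah10 and Dnah7c stood at 43.0%, 29.1% and 35.4% of control. Dnah7a and Dnah7b, close paralogues of Dnah7c whose reads the counting could have split, stood at 71.8% and 48.6%. Dnah12 and Dnah14 had at most 0.0826 TPM in any library. Dnah17, named after its values were seen, was the single heavy chain under 1 TPM with both cKO-labelled libraries above both controls, on 7 and 13 reads against 5 and 2. Dnah2os, an antisense RNA that overlaps Dnah2, had 1 and 2 reads against 11 and 5.

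**Figure D3:**
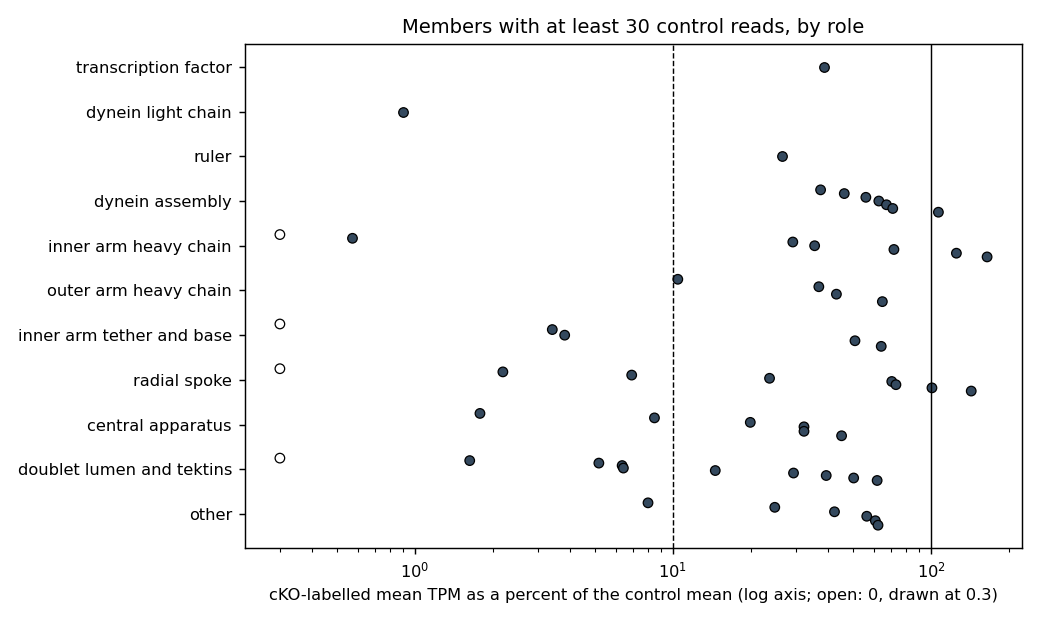
The cKO-labelled mean TPM as a percent of the control mean, on a log axis, for the 56 members with at least 30 control reads, by role; open circles, drawn at 0.3, are members with no cKO-labelled read. Assembly factors all lie above 10%, whereas doublet lumen, radial spoke and tether genes spread from 0 to above 60%.

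Ccdc39 and Ccdc40 together form the molecular ruler that sets the repeat of spokes and inner arms along the doublet, and their values went in opposite directions. Ccdc39 had 1.23 and 1.58 TPM against 3.96 and 6.70 TPM, or 26.3% of control (log2 fold change -1.37 ± 0.36 (SE)), and was called lower. Ccdc40 had 15.6 and 16.7 TPM against 11.6 and 14.1 TPM, with both cKO-labelled libraries above both controls, and was not called. Exons of Ccdc39 overlap Ttc14 on the opposite strand, and the labels and notes used here do not say whether the counting used strand. The difference between the fold changes of the pair was not tested.

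Genes that tether or anchor the inner arms ranged from no reads to 64.1% of control, and 1 of the 2 tested was called lower. The called gene, Cfap44, had a cKO-labelled mean under 1 TPM, where 41.2% of all tested genes were called lower. Cfap44 and Cfap43, the tether pair, had 0.0350 and 0.173 TPM against 2.26 and 3.19 TPM, and 0.0417 and 0.0514 TPM against 1.04 and 1.69 TPM. Cfap73 had no read in the cKO-labelled libraries against 16 and 24 in controls. Its binding partner in the base complex of the inner arm, known from Chlamydomonas, is Cfap100, which had 1.14 and 1.63 TPM against 2.11 and 2.21 TPM and was not called. Cfap57 stood at 50.7% of control.

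The radial spoke genes ranged from no reads to above the control level. Rsph4a, a spoke head protein, had no read in either cKO-labelled library against 63 and 133 reads in controls (1.35 and 3.29 TPM), at least 29.9-fold lower at 3 reads per library. Rsph1, also of the spoke head, had 0.5005 and 0.859 TPM against 7.93 and 11.7 TPM, or 6.92% of control. Cfap206, which docks spokes on the doublet, had 0.0395 and 0.146 TPM against 2.68 and 5.78 TPM, from 1 and 4 reads against 85 and 159.

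Rsph9, another spoke head protein, had 42.5 and 41.5 TPM against 40.1 and 18.6 TPM. Both cKO-labelled libraries lay above both controls, and the gene was not called (log2 fold change 0.60 ± 0.36 (SE)). Its fold change was 1.13 without control replicate 8, where it passed as higher in a fit that called 7379 of all genes, and 0.06 without control replicate 9. Rsph3a and Rsph3b, near-identical copies of a spoke stalk gene whose reads the counting could have split, stood at 73.1% and 101% of control. Rsph10b stood at 70.4%, on exons that overlap Pms2 on the same strand. Cfap61 and Rsph14, both under 1 TPM, stood at 23.7% and 11.1%, the latter on 2 reads against 19, and Rsph6a had 1 read in each group.

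In the central apparatus, Cfap65 had 0.0502 and 0.0464 TPM (4 reads each) against 2.81 and 2.60 TPM (280 and 225 reads), or 1.79% of control. Cfap69, which is also known from the cilia of olfactory neurons, had 0.720 and 1.52 TPM against 2.48 and 4.50 TPM and was called lower. Cfap74 had 1.31 and 2.58 TPM against 2.26 and 2.78 TPM, which overlap. Cfap221, Cfap70, Cfap54 and Cfap46, all of mean TPM under 1, stood at 8.48%, 19.9%, 32.2% and 45.0% of control. Cfap47 had 0.177 and 1.38 TPM against 0.526 and 1.38 TPM, and Cfap99 had at most 4 reads in any library.

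The proteins of the doublet lumen and the tektins, filament proteins that run along the doublets, included 8 tested genes. In all 8 both cKO-labelled libraries lay below both controls, and 5 were called lower. Of all tested genes, 34.1% lay so and 5.24% were called lower. Of the 4 with a cKO-labelled mean under 1 TPM, 3 were called, where 41.2% of all such tested genes were. Cfap52 had no read in either cKO-labelled library against 136 and 239 reads (4.59 and 9.29 TPM), at least 56.9-fold lower at 3 reads per library. Cfap126, also known as Flattop, had 0.885 and 1.74 TPM against 20.4 and 20.4 TPM, or 6.43% of control. Its control levels rest on 461 and 402 reads.

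Tekt4 had 0.196 and 0.0454 TPM against 2.47 and 2.21 TPM, while Tekt1 had 4.05 and 5.70 TPM against 10.7 and 14.1 TPM. Tekt2 had 5.32 and 11.4 TPM against 16.8 and 16.6 TPM and was not called, so the tektins ranged from 5.16% to 50.1% of control where they were tested. Cfap45 and Cfap53 stood at 14.6% and 29.3% of control, and the former was called. Cfap161 and Cfap77 had 1 and 3 reads in all in the cKO-labelled libraries against 65 and 54 in controls. Cfap20, which is also found in primary cilia, had 24.1 and 28.2 TPM against 36.5 and 48.2 TPM and was not called.

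Tekt5 overlapped between groups with 18 reads against 14, and Tekt3 had a single read in all 4 libraries. Among members of other or less certain role, the abundant Cfap36, a partner of the small GTPase ARL3, had 21.7 and 29.99 TPM against 30.8 and 52.1 TPM. Cfap97 had 7.19 and 7.15 TPM against 7.97 and 15.6 TPM. Cfap299 had 1 and 3 reads against 21 and 33, while Cfap97d2, Cfap157 and Cfap58 stood at 56.3%, 42.2% and 24.8% of control. Cfap97d1 had a single read in all.

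Of 58 motile axoneme genes that the name rule does not catch, 41 were tested, with a median log2 fold change of -0.89. In limma 19 were called lower and none higher (at an unadjusted p under 0.05, 24 lower and 1 higher). Of 15 with a cKO-labelled mean under 1 TPM, which passed the filter only through the controls, 12 were called lower. Of the 26 with a higher cKO-labelled mean, 7 were. The shares of all tested genes at such levels were 41.2% and 3.3%. Nothing is read from these counts, because the list was fixed with earlier results of these data known. The 5 called genes of this list with the largest log2 fold change were Pifo, Fam183b, Lrrc23, Dnajb13 and Nme5, at -3.08, -2.84, -2.40, -2.39 and -2.22. Pifo, which acts at the base of the cilium, had 0 and 0.482 TPM against 7.44 and 11.5 TPM. Dnajb13, a spoke chaperone, had 0.108 and 0 TPM (3 reads and none) against 4.64 and 4.36 TPM (162 and 132 reads). The 3 most abundant, Dnal4, Spef1 and Gas8, stood at 0.73, 0.52 and -0.12 and were not called, and of these Dnal4 and Spef1 had both cKO-labelled libraries above both controls.

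Genes of primary cilia and of intraflagellar transport, the trafficking system used by motile and non-motile cilia alike, were counted for comparison, with no test of the difference. Of 58 such genes 57 were tested, and 2 were called lower and none higher in limma, with a median of -0.44. Of all tested genes with a cKO-labelled mean of at least 1 TPM, 3.3% were called lower. At an unadjusted p under 0.05 in limma, 9 were lower and none higher, against 2200 and 1239 of all 15107 tested genes. The 2 called were Bbs12 and Bbs5, a chaperonin-like assembly factor and a subunit of the BBSome, at -1.30 and -1.13. The 3 most abundant were Arl3, Ift27 and B9d2, at -0.27, 0.35 and 0.36. No tested gene of this list had a cKO-labelled mean under 1 TPM, and 11 of the 34 tested members did. Abundance differed as well, so the lists are not alike in this respect. The 58 genes summed to 1444 and 1814 TPM in controls, and the 70 members to 469 and 536 TPM. The X-box with the 3-base spacer was found in 6 of 52 of these promoters (11.5%) and in 7 of 47 (14.9%) of the axonemal genes outside the rule.

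**Figure D4:**
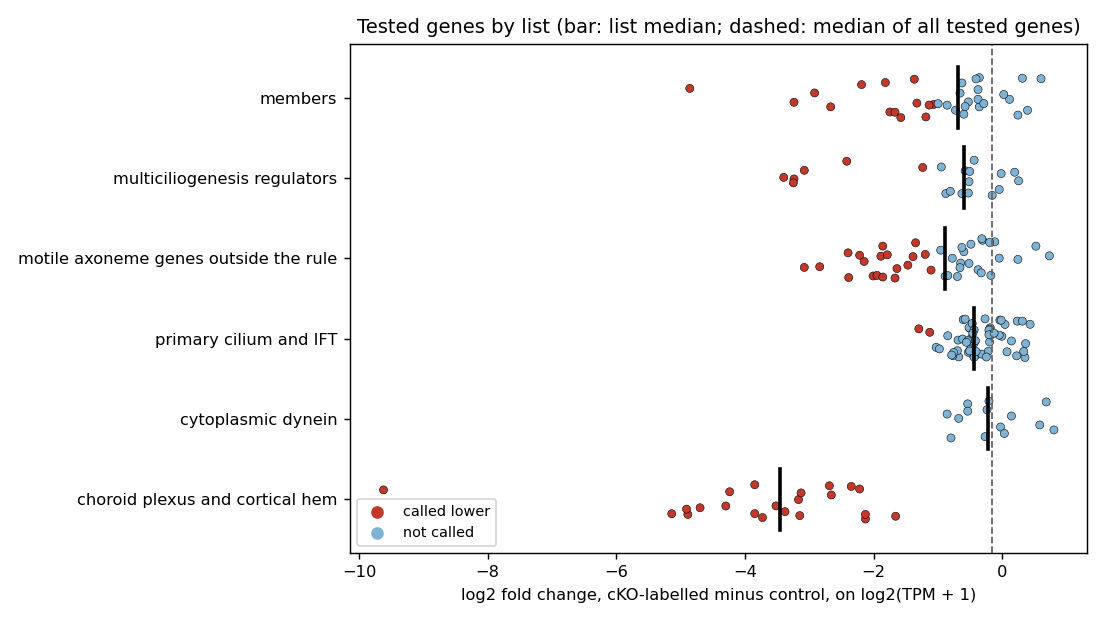
The log2 fold change (cKO-labelled minus control, on log2(TPM + 1)) of every tested gene in 6 lists; the bar is the list median and the dashed line is the median of all tested genes, -0.16. Called genes reach below -2 among the members, the regulators and the axonemal genes outside the rule, while primary cilium and cytoplasmic dynein genes lie between -1.30 and 0.80.

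Markers of some other cell types also differed between the groups, in either direction. All 22 tested markers of choroid plexus and cortical hem were called lower, with a median of -3.45. Of these, 16 had a cKO-labelled mean under 1 TPM and passed the filter only through the controls. At so low a mean 41.2% of all tested genes were called lower. The other 6 had a cKO-labelled mean of at least 1 TPM, where 3.3% of all tested genes were called lower. The 24 genes summed to 2281 and 2501 TPM in controls and to 18.2 and 29.9 TPM in the cKO-labelled pair. Ttr, the main secreted product of choroid plexus epithelium, had 1.49 and 1.45 TPM against 1862 and 2018 TPM, Kcne2 had 0 and 0.154 TPM against 19.6 and 48.2 TPM, and Kcnj13 was at 0 in both cKO-labelled libraries. Clic6 stood at 0.375% of control, Lmx1a, a hem regulator, at 2.28%, and Otx2 at 18.4%. The part of these cells in the result was not tested.

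Markers of ganglionic eminence were higher, with all 10 called, where 2.9% of all tested genes were called higher. Both cKO-labelled libraries lay above both controls for 9 of the 10, where 23.5% of all tested genes did so. The 10 summed to 1038 and 535 TPM in the cKO-labelled pair, which thus differed within itself, against 115 and 225 TPM in controls. Dlx2 had 152 and 72.5 TPM against 6.89 and 27.4 TPM, and Nkx2-1 had 44.2 and 3.73 TPM against 0.220 and 1.11 TPM. All 8 meningeal markers were lower, with sums of 7.35 and 3.29 TPM against 463 and 246 TPM. Of these, 7 had a cKO-labelled mean under 1 TPM and passed the filter only through the controls. At so low a mean 41.2% of all tested genes were called lower. Of 10 dorsal telencephalic markers, 1 was called lower and none higher in limma, with a median of -0.27. All 10 had a cKO-labelled mean of at least 1 TPM, where 3.3% of all tested genes were called lower. At an unadjusted p under 0.05 in limma, 3 were lower and none higher. Both cKO-labelled libraries lay below both controls for 5 of the 10 and above both for 2, where 34.1% and 23.5% of all tested genes did so. Emx1 stood at 62.7% of control and Pax6 at 59.1%, neither called. The 6 floor plate genes summed to 156 and 89.1 TPM in the cKO-labelled pair against 45.3 and 59.1 TPM in controls. Of the 3 tested, 1 was called higher and none lower in limma, with a median of 0.96, where 2.9% of all tested genes were called higher. Foxa1 and Foxa2 of this list were at 0 in both cKO-labelled libraries and at most 0.0761 TPM in controls. Of microglial and macrophage markers 2 of 8 were called lower, where 5.24% of all tested genes were. Of red blood cell markers none of 6 was called in limma, with 2 lower and none higher at an unadjusted p under 0.05. Their parts in the result were not tested either.

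Members also varied within the groups. Of the 34 tested members 25 (73.5%) had the larger value in replicate 5 of the cKO-labelled pair, where 61.7% of all tested genes were, and 24 (70.6%) were higher in control replicate 9 than in 8, where 57.9% were. The median difference between the controls was 0.32 on the log2 scale for the members and 0.17 for all tested genes. The log2 fold change of the 32 tested members with a GC value had a Spearman correlation of 0.33 with GC content, beside 0.54 for all tested genes, and these genes share the same 4 libraries. The median GC content was 49.4% for members called lower and 53.6% for those not called, with 49.8% for all tested genes. After removal of each library's GC trend, 12 of the 14 calls remained, and Ccdc39 and Cfap69 were lost.

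With each library left out in turn, 8 calls remained every time: Dynlrb2, Cfap126, Rsph1, Cfap52, Cfap206, Cfap44, Cfap65 and Rsph4a. Each such fit leaves 1 library in a group, which is assumed to vary like the other group, and all of the 8 but Cfap126 passed the filter only through the controls. Of the 14, leaving out cKO-labelled replicate 4 kept 9 and replicate 5 kept 8, while leaving out control replicate 8 kept 14 and replicate 9 kept 10. Without cKO-labelled replicate 4 the calls of Ccdc39, Cfap45, Cfap69, Foxj1 and Tekt1 were lost, and without replicate 5 that of Tekt4 as well. Without control replicate 9 those of Ccdc39, Cfap45, Cfap69 and Tekt1 were lost. The median log2 fold change of the tested members moved to -0.54 on leaving out control replicate 9 and to -1.01 on leaving out replicate 8. The members lay on 18 chromosomes among the 65 with coordinates, with 10 on chromosome 11. Exons of 31 members overlapped those of another gene, among them 4 of the 14 called lower, each on the opposite strand.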

How the data were processed

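Per the labels' design, 4 libraries were compared; the authors deposited gene-level TPM for 40630 genes, and each library's TPM sums to 1000000. Reads were aligned with STAR to mm10, per the submitters' processing notes; which counter, strand setting and annotation were used is not given in the sources used here. Libraries were made with a stranded total RNA kit, per the labels' protocols. The members, lists, roles and alternatives were chosen with earlier results of these data known.

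Symbols turned into dates (27) were restored from gene IDs. Of the IDs, 40281 (99.1%) matched GENCODE M21 with their version. TPM multiplied by merged exon length and divided by each library's value of 1 read gave whole reads, to within 0.05 reads, for 100.0% of values; 5 members had no matching length and have no reads or coordinates. Replicates differed beyond sampling noise (chi-square per gene of 33.0 within cKO-labelled and 211 within control), so each library counts as 1 sample. Intervals and floors (3 reads) cover counting error only.

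Genes averaging 1 TPM or more entered a linear model on log2(TPM + 1) in limma 3.58.1 (R 4.3.3), a scale that understates the change of low genes, with an intensity trend, two-sided, Benjamini-Hochberg adjusted and called under 0.05. The prior degrees of freedom were infinite, so standard errors are those of the pooled trend and not of a gene's own replicates. No exact permutation test was run, as 2 against 2 libraries give p = 0.333 at the lowest. The fit was tested on simulated data. Alternatives were other pseudocounts, filters, scalings, robust empirical Bayes, removal of each library's GC trend and each library left out. Promoters are RefSeq's, in GRCm38.p6. Named were Upf2, members with a mean TPM of at least 1, the next 6, any with 30 reads in a library, the 3 most abundant and up to 5 called genes of each list, and fixed markers. Members outside this rule, and genes said to be so, were named after their values were seen. A marker gene covered by this rule is not reported here.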

Additional observations from a re-analysis of the deposited data

How the results depend on the processing

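No paired analysis was possible because the groups share no replicate number. The 14 calls of lower members were unaffected by pseudocounts of 0.1 or 0.5, robust empirical Bayes or median-of-ratios scaling, and 11 remained after quantile normalization. Member calls lower were 9 with no filter on low TPM, of which 7 were among the 14 (lost were Ccdc39, Cfap206, Cfap45, Cfap69, Foxj1, Rsph4a and Tekt1), and 5 with a mean TPM of at least 5, where 17 members were tested, and 8 to 21 with each library left out; calls higher were 0 to 1. All genes called were 178 with no filter and 642 at a mean of at least 5, and 176 to 7379 with a library left out. Scaling changed the share of calls that were higher from 35.6% to 56.2% (median-of-ratios) and 57.2% (quantile), and the median of all genes from -0.16 to 0.02 and -0.01. The member median was -0.44 with no filter and -0.50 after median-of-ratios scaling, and -1.01 to -0.54 with a library left out. Axonemal genes outside the rule called lower were 7 with no filter, 4 at a mean of at least 5, and 8 to 25 with a library left out. Primary cilium genes called were 0 with no filter, 1 each at a mean of at least 5 and after either scaling, and 0 to 30 with a library left out. Upf2 ranged from -0.26 to 0.52 with a library left out turning negative at -0.16 and -0.26, and was 0.58 ± 0.18 (SE) after GC removal (limma adjusted p = 0.0905). Direction also turned for 4 members that were not called: Dnaaf5 (0.11) to -0.28 after GC removal and -0.14 without control replicate 9; Rsph3b (0.02) to -0.11 after GC removal, -0.15 without control replicate 8 and -0.0 without cKO-labelled replicate 4; Cfap74 (-0.29) to 0.01 after quantile normalization and 0.03 without cKO-labelled replicate 4; and Dnah2 (0.39) to -0.01 without cKO-labelled replicate 5. With each library left out, Dnaaf5 reached 0.36, Rsph3b 0.20, Cfap74 -0.60 and Dnah2 0.78 at the other end of the range. The cause of these changes was not tested. Members with under 10 reads in a group cannot be ranked at this depth.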
